A study of Homo sapiens with 16 samples.

Results

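The genes of DNA replication and of nucleotide supply were followed across treatments of SK-N-BE(2)C, an adrenergic human neuroblastoma line with amplified MYCN. The 59 members, of 27037 gene symbols in the count table, were chosen by symbol from their known roles in origin licensing, helicase activation, DNA synthesis, chromatin duplication and nucleotide synthesis, and each was placed in 1 of 13 steps. All 59 passed the filter on low counts, and the lowest count of any member in any sample was 40, for FAM111B. RNA sequencing had been carried out on 16 samples in 4 groups of 4 replicates. The groups were the vehicle DMSO, 10 µM retinoic acid (RA), 1 µM palbociclib (PB), and both agents together (PB+RA). Per the study's methods the cells were treated for 5 days, and replicates were different passages of the line plated separately. All groups therefore share 1 line, and every result below is a measurement of that line in culture.

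DNA replication begins in G1, when the origin recognition complex and the loading factors CDC6 and CDT1 place the MCM2-7 helicase on DNA. The helicase is activated at the start of S phase by kinases and by CDC45 and the GINS complex, and polymerases then copy both strands with the sliding clamp PCNA. Many of these genes are transcribed at the border of G1 and S by E2F factors, which the retinoblastoma protein RB holds back until CDK4 and CDK6 phosphorylate it, and palbociclib inhibits these kinases. RA is a retinoid given in neuroblastoma as a differentiating agent. In bulk RNA, fewer cells in S phase and less RNA per cell cannot be told apart.

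Promoter sequences are shown for the member with the largest fall in PB+RA in each of 5 steps (licensing, the helicase, origin firing, the clamp and nucleotide supply), to show where the E2F letters stand in genes that fell strongly. These 5 all held the motif, while the members with the largest fall in the origin recognition, alpha-primase, Okazaki fragment, fork protection and chromatin steps (ORC1, PRIM1, FEN1, TIPIN and CHAF1B) did not. POLE2, that of the polymerase delta and epsilon step, also held it. Each is the 200 bases before the RefSeq transcription start on GRCh38.p14, printed 5′ to 3′ on the strand of the gene, with matches to the E2F motif in capitals.
CDT1: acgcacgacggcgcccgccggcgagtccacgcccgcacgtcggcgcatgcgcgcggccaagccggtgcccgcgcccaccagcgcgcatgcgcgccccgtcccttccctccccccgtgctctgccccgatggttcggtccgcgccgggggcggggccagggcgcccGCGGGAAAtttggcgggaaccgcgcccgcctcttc
MCM6: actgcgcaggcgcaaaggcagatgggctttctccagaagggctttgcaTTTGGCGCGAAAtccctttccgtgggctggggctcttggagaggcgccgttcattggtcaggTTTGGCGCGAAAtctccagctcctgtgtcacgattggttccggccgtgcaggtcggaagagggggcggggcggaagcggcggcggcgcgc
GINS2: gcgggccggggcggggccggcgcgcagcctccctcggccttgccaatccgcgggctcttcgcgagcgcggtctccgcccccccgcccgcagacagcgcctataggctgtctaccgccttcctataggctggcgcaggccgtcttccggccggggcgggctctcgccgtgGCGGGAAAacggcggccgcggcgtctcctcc
PCNA: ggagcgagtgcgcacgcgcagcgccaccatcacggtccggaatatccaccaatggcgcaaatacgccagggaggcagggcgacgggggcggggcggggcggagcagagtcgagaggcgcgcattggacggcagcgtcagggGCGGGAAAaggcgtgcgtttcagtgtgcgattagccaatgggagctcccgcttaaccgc
TYMS: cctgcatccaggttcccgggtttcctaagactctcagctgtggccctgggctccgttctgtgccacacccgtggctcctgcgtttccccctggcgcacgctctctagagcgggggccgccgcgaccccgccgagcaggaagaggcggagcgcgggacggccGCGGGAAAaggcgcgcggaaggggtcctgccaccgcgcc

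The windows lie at chr16:88803589-88803788 on the plus strand for CDT1, chr2:135876444-135876643 on the minus strand for MCM6, chr16:85688955-85689154 on the minus strand for GINS2, chr20:5126623-5126822 on the minus strand for PCNA and chr18:657453-657652 on the plus strand for TYMS. CDT1, GINS2, PCNA and TYMS each held 1 match, whose first base stood 35, 31, 59 and 39 bases before the start, in that order. MCM6 held 4 matches, as 2 pairs of overlapping matches on opposite strands, at 152 and 148 and at 90 and 86 bases before the start.

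The E2F motif was searched as TTTCCCGC, TTTGGCGC, TTTCGCGC or TTTGCCGC on both strands in windows of 250 bases before to 50 after each start. A window was found for 52 of the 59 members, and where a gene had several windows the first listed was used. Of these 52, 20 (38.5%) held the motif, against 3.31% of all 35116 promoter windows and 5.28% of the 11316 windows of tested genes. All 4 MCM2-7 genes with a window held it, as did 3 of 4 licensing genes, 1 of 6 origin recognition genes and 0 of 3 fork protection genes. Nucleotide supply and chromatin duplication, among the steps with the lowest medians in PB+RA, held it in 1 of 5 genes each, and TYMS was the 1 gene of nucleotide supply. Of 18 members with a log2 fold change below -2 in PB+RA, 8 held it, against 12 of the other 34. ORC3, whose level did not pass the test in PB+RA, also held it. The CCAAT box was present in 53.8% of the members' windows, 34.6% of all windows and 36.4% of the windows of tested genes. The letters TTTGAA, the CHR element, were present in 5.77%, 15.2% and 9.69%, in the same order. None of these motifs contains another, and a match describes letters only.

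Sequencing depth was 19.5 to 31.6 M counts per sample. The 59 members together took 0.792% to 0.801% of the counts in DMSO, 0.625% to 0.672% in RA, 0.429% to 0.482% in PB and 0.254% to 0.298% in PB+RA, with no overlap between the groups. In PB+RA replicates 1 and 2 stood at 0.254% each, and replicates 3 and 4 at 0.298% and 0.295%. In PB replicates 1 and 2 were also the lower ones (0.429% each, against 0.471% and 0.482%), while in RA they were the higher ones (0.672% and 0.663%, against 0.637% and 0.625%), so counts within each of these sets are given below. All 7 adrenergic markers were present, at a summed 2270 to 2520 counts per 1000000 (CPM) in DMSO, 2560 to 2910 in RA, 2900 to 3130 in PB and 2760 to 3680 in PB+RA, so that every treated group lay above DMSO. Of 8 mesenchymal or Schwann-like markers 7 were in the table, and their sum was 250 to 347 CPM in DMSO, 681 to 1050 in RA, 254 to 441 in PB and 528 to 857 in PB+RA. FN1 made up much of that sum, at 106 to 932 CPM, and the part of these markers in the results was not tested.

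With PB, 47 of the 59 members fell and 0 rose, where 11.3% of all 15415 tested genes were called lower and 16.9% higher. Calls required a p below 0.05 in edgeR's quasi-likelihood test, adjusted by Benjamini-Hochberg over all tested genes, and a log2 fold change of more than 0.5 in size. With PB+RA, 55 fell and 0 rose, beside 17.9% and 24.0% of tested genes. With RA, only RPA3 and TIPIN fell and 0 rose, beside 2.54% and 10.8%. The 2 of 59 members lower in RA are thus close to the share over all tested genes. With no fold minimum 43 members were lower and 0 higher in RA, beside 16.4% and 18.8% of tested genes. At an unadjusted p below 0.05 edgeR found 0 members higher in PB, RA or PB+RA than in DMSO, and DESeq2 and limma-voom also called 0 higher. The median log2 fold change of the members was -0.87 with PB, -0.32 with RA and -1.60 with PB+RA, where that of all tested genes lay between -0.04 and 0.04. Within replicates 1 and 2 the lower calls were 47, 1 and 56 for PB, RA and PB+RA, and within replicates 3 and 4 they were 46, 12 and 55. The shares of tested genes called lower were 12.1%, 1.99% and 18.3% within replicates 1 and 2. Within replicates 3 and 4 these shares were 12.5%, 4.47% and 18.8%. The lower calls in RA went from 2 to 4 or 5 without DMSO replicate 3, RA replicate 1 or 2, or any single PB or PB+RA sample.

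**Figure D1:**
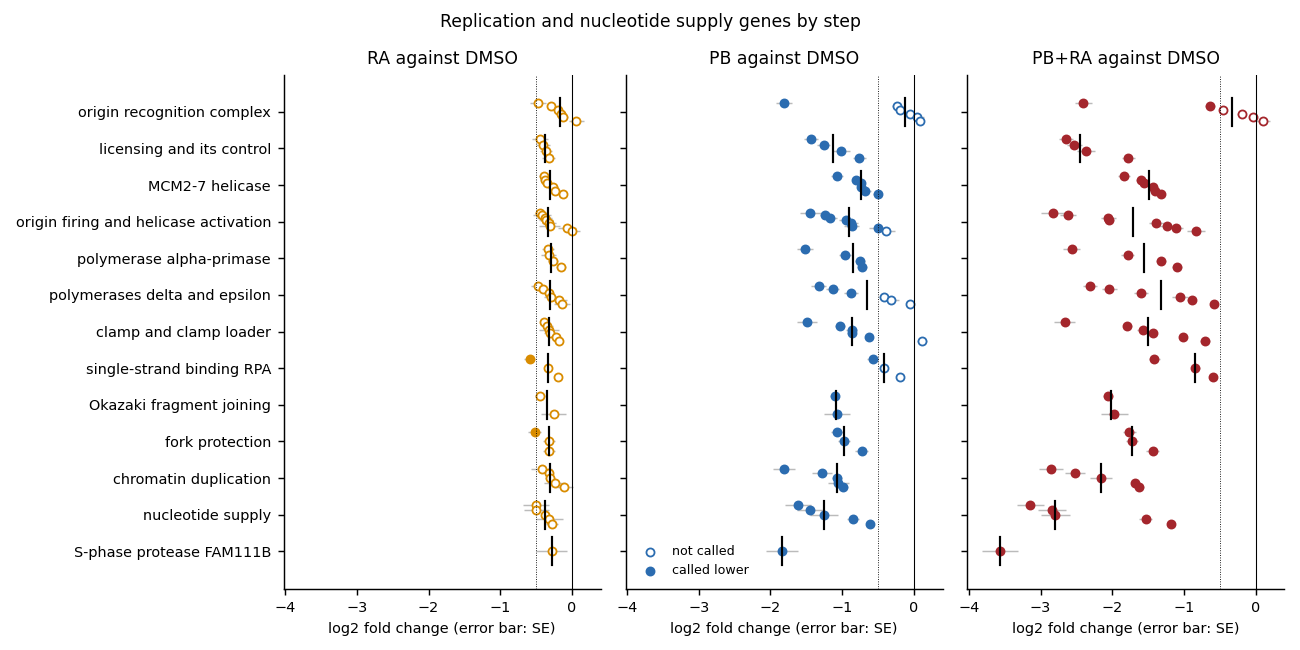
Each point is 1 of the 59 members, placed on the x axis by its log2 fold change from edgeR (error bar, SE) and on the y axis by its step, for RA, PB and PB+RA against DMSO. Filled points were called lower, open points were not called, the black bar is the median of the step and the dotted line marks the fold minimum of -0.5. The medians in PB+RA run from -0.32 in the origin recognition complex to -2.80 in nucleotide supply and -3.56 for FAM111B alone.

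The steps fell by different amounts in PB+RA. The median log2 fold change was -2.80 for the 5 genes of nucleotide supply, -2.45 for the 4 licensing genes, -2.16 for the 5 genes of chromatin duplication and -2.02 for the 2 genes of Okazaki fragment joining. It was -1.73 for fork protection, -1.71 for origin firing, -1.55 for polymerase alpha-primase, -1.50 for the clamp and its loader, -1.49 for MCM2-7 and -1.32 for polymerases delta and epsilon. The smallest were -0.84 for RPA and -0.32 for the origin recognition complex. With PB alone the same 2 steps were at -0.42 and -0.12, and nucleotide supply was at -1.25. With RA alone the step medians of several genes ran only from -0.38 to -0.17.

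The origin recognition complex, which marks the sites where replication can start, parted into ORC1 and the rest. ORC1, the subunit whose level is known to change through the cell cycle, was measured at 30.1, 29.1, 26.2 and 28.5 CPM in DMSO replicates 1 to 4, at 21.1, 24.9, 18.9 and 17.7 in RA, at 7.42, 7.88, 8.46 and 8.65 in PB and at 6.24, 5.89, 4.49 and 5.28 in PB+RA. The 4 groups did not overlap. Its log2 fold change was -1.81 ± 0.11 (SE, n = 4 per group) with PB and -2.41 ± 0.12 with PB+RA (edgeR adjusted p = 3.38e-11). ORC1 lies at chr1:52838501-52870095 (minus strand, GRCh37).

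ORC4, another core subunit, stood at 26.9, 28.8, 28.7 and 30.3 CPM in DMSO, at 29.2, 27.0, 33.3 and 31.3 in RA, at 29.7, 24.4, 31.6 and 32.5 in PB and at 27.0, 28.2, 36.0 and 34.2 in PB+RA, and all groups overlapped. Its change in PB+RA was 0.10 ± 0.10 on the log2 scale (edgeR adjusted p = 0.406). ORC6, the most abundant subunit gene by CPM, was measured at 102, 97.3, 102 and 99.5 CPM in DMSO, 87.4, 84.0, 78.4 and 80.4 in RA, 88.0, 84.3, 87.0 and 92.0 in PB and 73.8, 68.1, 78.6 and 78.1 in PB+RA. Every treated sample of ORC6 was below every DMSO sample, but its change in PB+RA of -0.45 ± 0.05 was too small to be called. ORC6 was called lower when PB+RA replicate 3 was left out and when replicates 1 and 2 were tested by themselves.

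ORC2 fell by 0.63 on the log2 scale in PB+RA and was at -0.23 in PB. ORC3 and ORC5 were at -0.04 and -0.20 in PB+RA. ORC3 was the highest of the members in PB+RA against RA, at 0.16, and was the 1 member higher in that comparison when no fold minimum was set.

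**Figure D2:**
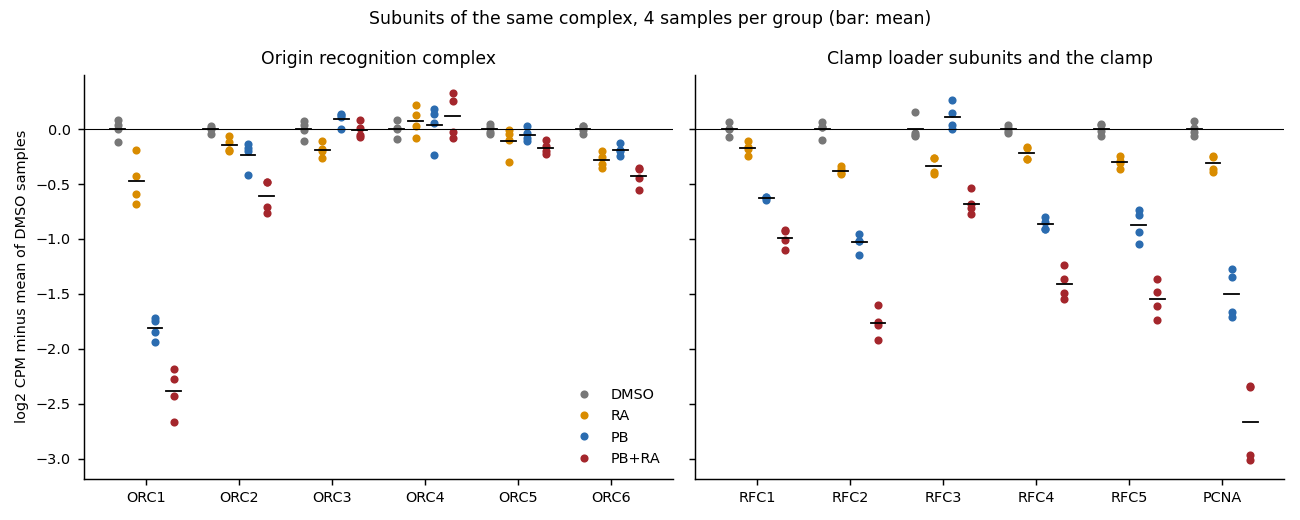
The y axis gives log2 CPM minus the mean of the DMSO samples, for the 6 origin recognition genes on the left and for the 5 clamp loader genes and PCNA on the right; each point is a sample, coloured by group, and the bar is the group mean of 4. ORC1 and PCNA drop far below the other genes, while the points of ORC3 and ORC4 stay close to 0 in all groups and those of RFC3 stay at or above 0 in PB.

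All 4 licensing genes fell with PB and further with PB+RA. CDC6, which loads the helicase with CDT1, was measured at 150, 147, 154 and 157 CPM in DMSO, 118, 110, 111 and 111 in RA, 68.8, 67.4, 79.4 and 86.2 in PB and 24.4, 24.2, 36.4 and 35.5 in PB+RA. The groups were fully separate, and PB+RA was left with 19.8% of the DMSO mean. CDT1 (chr16:88870197-88875666, plus strand) stood at 127, 117, 111 and 108 CPM in DMSO, 97.7, 99.0, 85.9 and 81.3 in RA, 48.0, 50.2, 46.9 and 48.6 in PB and 18.0, 15.7, 21.8 and 19.8 in PB+RA. Its groups did not overlap either, and the change in PB+RA was -2.65 ± 0.09 (edgeR adjusted p = 1.05e-12).

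DTL, which directs the degradation of CDT1 in S phase, stood at 124, 125, 121 and 131 CPM in DMSO, 106, 102, 97.1 and 96.0 in RA, 69.4, 70.9, 75.5 and 79.8 in PB and 32.2, 31.6, 43.2 and 42.0 in PB+RA. At -1.78 on the log2 scale, it changed least of the 4 in PB+RA. GMNN, which encodes the CDT1 inhibitor geminin, had a mean of 97.7 ± 3.91 CPM (SD, n = 4) in DMSO and 74.2 ± 3.18 in RA. The mean was 36.1 ± 3.90 in PB (log2 fold change -1.43) and 17.3 ± 3.16 in PB+RA (-2.53).

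The 6 genes of the MCM2-7 helicase, which unwinds DNA at the fork, moved close together. All 6 fell with PB, from -0.50 (MCM5) to -1.07 (MCM6) on the log2 scale, and with PB+RA, from -1.32 (MCM7) to -1.83 (MCM6). MCM6 (chr2:136597196-136634013, minus strand), whose promoter holds the paired motifs above, was measured at 136, 142, 133 and 142 CPM in DMSO, 123, 120, 108 and 110 in RA, 64.4, 60.0, 65.5 and 73.3 in PB and 34.0, 35.9, 43.8 and 44.5 in PB+RA. MCM7, the most abundant member of all by CPM, stood at 665, 675, 680 and 671 CPM in DMSO, 625, 649, 607 and 599 in RA, 348, 372, 407 and 417 in PB and 257, 277, 285 and 284 in PB+RA. Neither gene overlapped between any of the groups. MCM5 lay close to the fold minimum in PB and lost its call there under a stricter filter on low counts.

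Per kb of annotated exon, the DMSO level was 136 ± 1.24 CPM per kb (SD) for MCM7, 124 ± 2.75 for MCM3, 83.2 ± 3.64 for MCM2, 49.2 ± 1.09 for MCM4, 37.5 ± 1.08 for MCM5 and 33.4 ± 1.02 for MCM6. The order of the level per kb was the same in PB+RA, from 55.6 ± 2.65 for MCM7 to 9.57 ± 1.30 for MCM6. The exon length is the union over annotated transcripts, and the transcripts used in these cells were not measured.

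Of the 8 genes of origin firing, 7 fell with PB and all 8 with PB+RA. MCM10, which helps activate the helicase, was measured at 98.9, 97.8, 90.9 and 95.1 CPM in DMSO, 80.2, 76.8, 68.0 and 70.8 in RA, 41.6, 42.7, 40.9 and 44.5 in PB and 13.2, 12.4, 19.7 and 18.4 in PB+RA. GINS2 (chr16:85709804-85723679, minus strand) stood at 87.7, 83.4, 89.7 and 84.6 CPM in DMSO, 76.3, 66.2, 67.5 and 70.1 in RA, 26.4, 26.2, 36.3 and 37.8 in PB and 9.74, 9.52, 15.3 and 15.0 in PB+RA. Both were separate in all 4 groups, and GINS2 fell by 2.83 ± 0.16 on the log2 scale in PB+RA (edgeR adjusted p = 2.98e-10).

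The 4 GINS subunits, which join CDC45 and MCM2-7 in the active helicase, did not fall alike in size. GINS4 was measured at 35.1, 35.0, 43.3 and 41.6 CPM in DMSO, 33.6, 34.6, 41.7 and 39.3 in RA, 29.4, 25.9, 25.7 and 28.4 in PB and 17.8, 18.7, 23.3 and 29.5 in PB+RA. RA and DMSO overlapped for GINS4, as did PB and PB+RA. In PB+RA the log2 fold change was -2.04 for GINS1, -2.83 for GINS2, -1.11 for GINS3 and -0.83 ± 0.13 for GINS4. The call of GINS4 with PB, at -0.50 ± 0.13, was lost with a replicate block. CDC45 fell from 84.8 ± 6.34 CPM in DMSO to 44.2 ± 6.77 in PB and 20.8 ± 2.26 in PB+RA. CDC7, the kinase that starts firing, was at -0.39 in PB, short of the fold minimum, and fell by 1.23 in PB+RA.

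The polymerase alpha-primase complex, which lays the primers, fell in all 4 genes with PB and with PB+RA. PRIM1, the catalytic primase subunit, was measured at 57.6, 55.0, 58.3 and 56.0 CPM in DMSO, 47.0, 46.7, 44.2 and 44.6 in RA, 19.5, 17.2, 20.1 and 22.5 in PB and 7.20, 8.86, 12.4 and 10.8 in PB+RA. PRIM2, its partner, stood at 23.0, 24.4, 23.1 and 22.6 CPM in DMSO, 21.2, 22.9, 19.3 and 21.1 in RA, 14.4, 13.5, 14.6 and 13.9 in PB and 10.1, 10.5, 11.2 and 12.7 in PB+RA. RA overlapped DMSO for PRIM2, and all other groups of both genes were separate. In PB+RA, PRIM1 was left with 17.3% of its DMSO mean and PRIM2 with 47.8%.

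POLA1, the polymerase subunit, was measured at 70.9, 74.3, 81.6 and 81.1 CPM in DMSO, 63.6, 62.9, 65.7 and 64.9 in RA, 45.3, 42.6, 46.0 and 49.7 in PB and 28.5, 28.4, 34.8 and 33.9 in PB+RA, with no overlap between groups. Its log2 fold change was -0.74 with PB and -1.32 with PB+RA. POLA2 fell from 45.0 ± 1.60 CPM in DMSO to 23.2 ± 0.614 in PB and 13.3 ± 2.10 in PB+RA.

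Polymerases delta and epsilon, which copy the bulk of the genome, held both strong and weak responders. POLE2, an accessory subunit of polymerase epsilon, was measured at 31.7, 31.8, 31.2 and 31.7 CPM in DMSO, 23.5, 23.9, 21.8 and 22.3 in RA, 14.2, 14.4, 14.9 and 14.0 in PB and 6.12, 5.27, 8.16 and 6.46 in PB+RA. POLE3, a small subunit of the same polymerase that also serves in chromatin remodelling, stood at 161, 168, 165 and 160 CPM in DMSO, 131, 138, 128 and 128 in RA, 158, 162, 154 and 155 in PB and 111, 118, 107 and 111 in PB+RA. POLE3 in PB overlapped DMSO and had a log2 fold change of -0.06 ± 0.04 (edgeR adjusted p = 0.280), but it fell by 0.58 in PB+RA. That call was close to the minimum, and POLE3 against PB, at -0.52 ± 0.04, lost its call in replicates 1 and 2 alone and without PB+RA replicate 3 or 4.

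POLD2, the most abundant member of this step by CPM, was measured at 215, 222, 214 and 202 CPM in DMSO, 162, 178, 155 and 154 in RA, 154, 171, 153 and 159 in PB and 117, 126, 113 and 113 in PB+RA. RA and PB overlapped each other, and both were below DMSO. The change of POLD2 was -0.42 with PB, -0.40 with RA and -0.89 with PB+RA, of which only the last was called. POLD3 fell with PB (-1.32) and with PB+RA (-2.04), and so did POLE (-0.87 and -1.60). POLD1, the catalytic subunit of polymerase delta, was at -0.31 in PB, which was not called, and fell by 1.05 in PB+RA.

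PCNA, the sliding clamp, had a larger log2 fold change in both PB and PB+RA than any gene of the loader that places it. PCNA (chr20:5095599-5107272, minus strand) was measured at 393, 411, 432 and 402 CPM in DMSO, 345, 343, 319 and 313 in RA, 129, 125, 161 and 169 in PB and 50.6, 52.2, 80.4 and 80.7 in PB+RA. The groups were separate, and the change was -1.49 ± 0.14 with PB and -2.66 ± 0.15 with PB+RA (edgeR adjusted p = 3.66e-10). RFC3, a small subunit of the loader, stood at 144, 165, 141 and 142 CPM in DMSO, 123, 123, 113 and 111 in RA, 163, 177, 152 and 148 in PB and 92.1, 102, 89.6 and 86.3 in PB+RA. PB overlapped DMSO for RFC3, at a log2 fold change of 0.11 ± 0.07 (edgeR adjusted p = 0.195), and PB+RA was below every other sample.

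The other loader subunits fell with PB, at log2 fold changes of -0.63 (RFC1), -1.03 (RFC2), -0.86 (RFC4) and -0.87 (RFC5). In PB+RA the changes were -1.02, -1.79, -1.43 and -1.57 in the same order, and -0.71 for RFC3. Against PB, RFC3 fell by 0.82 ± 0.07 in PB+RA.

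The 3 RPA genes encode the complex that coats single-stranded DNA. In PB and in PB+RA their median changed least after that of the origin recognition complex. In RA their median was -0.34, beside -0.31 for MCM2-7. RPA1, the large subunit, was measured at 113, 122, 110 and 118 CPM in DMSO, 86.7, 100, 91.2 and 90.1 in RA, 81.6, 90.4, 87.5 and 85.9 in PB and 59.9, 68.5, 66.2 and 69.1 in PB+RA. RPA2 stood at 41.0, 42.7, 43.7 and 42.4 CPM in DMSO, 38.1, 40.3, 35.9 and 35.2 in RA, 37.2, 37.4, 37.5 and 36.6 in PB and 28.0, 29.3, 27.8 and 29.7 in PB+RA. RPA3, the smallest subunit, was at 46.2, 40.1, 44.5 and 40.4 CPM in DMSO, 30.7, 25.9, 28.9 and 29.1 in RA, 29.0, 26.3, 27.7 and 32.1 in PB and 17.4, 15.3, 17.1 and 15.7 in PB+RA. In all 3 genes RA overlapped PB, DMSO was the highest and PB+RA the lowest.

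RPA3 was the member with the largest change in RA, at -0.59 ± 0.08 (edgeR adjusted p = 2.6e-05), beside -0.57 ± 0.08 in PB and -1.41 ± 0.08 in PB+RA. RPA1 and RPA2 were called only in PB+RA, against DMSO (-0.84 and -0.59) and, for RPA1, against RA. In PB and in RA both fell short of the fold minimum only, and both were lower there when no fold minimum was set. RPA1 against RA, at -0.50, lost its call with RLE size factors, with DESeq2, within replicates 3 and 4 and without some of the single samples.

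Both genes of Okazaki fragment joining fell with PB and with PB+RA. FEN1, the flap nuclease, was measured at 123, 125, 129 and 122 CPM in DMSO, 96.0, 88.6, 93.8 and 90.2 in RA, 54.5, 54.6, 59.4 and 63.1 in PB and 28.9, 27.5, 33.8 and 31.4 in PB+RA. LIG1, the ligase, stood at 58.9, 57.4, 63.4 and 61.9 CPM in DMSO, 50.0, 49.0, 56.7 and 48.5 in RA, 22.1, 22.4, 34.5 and 36.0 in PB and 12.2, 11.6, 20.5 and 18.6 in PB+RA. Groups did not overlap in either gene, but in LIG1 replicates 3 and 4 of PB and of PB+RA were well above replicates 1 and 2. The log2 fold change in PB+RA was -2.06 ± 0.07 for FEN1 and -1.97 ± 0.19 for LIG1.

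The 3 genes of fork protection fell by similar amounts in PB+RA. TIPIN was measured at 28.5, 27.3, 26.3 and 26.8 CPM in DMSO, 20.8, 20.1, 17.6 and 17.8 in RA, 12.2, 12.7, 13.0 and 14.1 in PB and 7.24, 8.86, 9.21 and 7.38 in PB+RA. Its partner TIMELESS stood at 210, 198, 204 and 214 CPM in DMSO, 181, 155, 167 and 163 in RA, 104, 90.3, 111 and 115 in PB and 61.5, 53.7, 69.9 and 69.8 in PB+RA. WDHD1, which couples the helicase to polymerase alpha, was at 58.2, 63.6, 60.3 and 65.7 CPM in DMSO, 46.7, 50.3, 51.5 and 51.2 in RA, 36.0, 35.7, 39.3 and 38.7 in PB and 20.7, 19.6, 27.9 and 25.1 in PB+RA. All 3 genes were separate in the 4 groups, and their log2 fold changes in PB+RA were -1.76, -1.73 and -1.44 in that order. TIPIN was the other member called in RA, at -0.52 ± 0.09 (edgeR adjusted p = 0.000259), and lost that call in replicates 1 and 2 alone.

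The genes that rebuild chromatin behind the fork all fell with PB and with PB+RA. CHAF1B, a subunit of the histone chaperone CAF-1, was measured at 58.9, 55.4, 54.0 and 55.0 CPM in DMSO, 46.3, 42.9, 40.5 and 38.1 in RA, 14.8, 13.3, 17.3 and 18.0 in PB and 5.69, 5.80, 9.42 and 10.7 in PB+RA. CHAF1A, its partner, stood at 234, 223, 220 and 218 CPM in DMSO, 187, 186, 176 and 169 in RA, 107, 111, 118 and 117 in PB and 73.1, 64.3, 76.7 and 71.5 in PB+RA. Within this chaperone CHAF1B was left with 14.2% of its DMSO mean in PB+RA and CHAF1A with 31.9%.

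SLBP, which binds the stem loop of histone mRNAs, was measured at 127, 134, 138 and 130 CPM in DMSO, 109, 110, 108 and 105 in RA, 57.7, 60.8, 66.2 and 68.3 in PB and 39.4, 39.8, 48.7 and 46.7 in PB+RA. At -1.63 on the log2 scale, it changed least of the 5 in PB+RA. UHRF1, which recruits the maintenance methyltransferase, fell from 126 ± 6.02 CPM in DMSO to 51.9 ± 5.52 in PB and 22.5 ± 6.07 in PB+RA, and was at 117 ± 8.57 in RA. ASF1B, another histone chaperone, fell from 66.8 ± 2.84 to 32.1 ± 5.21 and 15.3 ± 4.39, and was at 56.9 ± 0.867 in RA.

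Nucleotide supply was the step of several genes with the lowest median. RRM2 (chr2:10260825-10351851, plus strand), the small subunit of ribonucleotide reductase, was measured at 396, 382, 385 and 397 CPM in DMSO, 333, 310, 313 and 305 in RA, 145, 130, 182 and 197 in PB and 38.6, 40.2, 76.1 and 74.5 in PB+RA. TYMS (chr18:657653-673578, plus strand), which makes thymidylate, stood at 171, 164, 175 and 167 CPM in DMSO, 128, 117, 121 and 117 in RA, 48.0, 43.5, 61.6 and 67.8 in PB and 16.3, 12.4, 24.8 and 25.0 in PB+RA. The groups did not overlap in either, and replicates 3 and 4 were the higher ones under PB and PB+RA. The log2 fold change of TYMS was -1.62 ± 0.18 with PB and -3.14 ± 0.19 with PB+RA (edgeR adjusted p = 9.84e-10).

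DUT, which breaks down dUTP, was measured at 224, 210, 234 and 212 CPM in DMSO, 185, 176, 160 and 161 in RA, 137, 139, 151 and 148 in PB and 97.0, 99.1, 99.9 and 99.4 in PB+RA. It had the smallest changes of the 5, at -0.61 with PB and -1.18 with PB+RA, and RRM1, the large reductase subunit, was at -0.84 and -1.53. TK1, the S-phase thymidine kinase, fell from 142 ± 9.32 CPM in DMSO to 51.9 ± 9.86 in PB and 20.2 ± 7.09 in PB+RA. In RA, TYMS and TK1 were both at -0.50, just short of the fold minimum, and were called lower with RLE size factors and with DESeq2.

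FAM111B, a protease gene with S-phase expression, had the largest fall of all members. It was measured at 34.0, 30.3, 31.6 and 31.9 CPM in DMSO, 27.8, 25.2, 27.3 and 25.4 in RA, 7.34, 5.61, 11.9 and 10.9 in PB and 1.71, 1.77, 3.72 and 3.89 in PB+RA. Its change was -1.84 ± 0.23 with PB and -3.56 ± 0.26 with PB+RA (edgeR adjusted p = 5.9e-09), which left 8.68% of the DMSO mean.

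**Figure D3:**
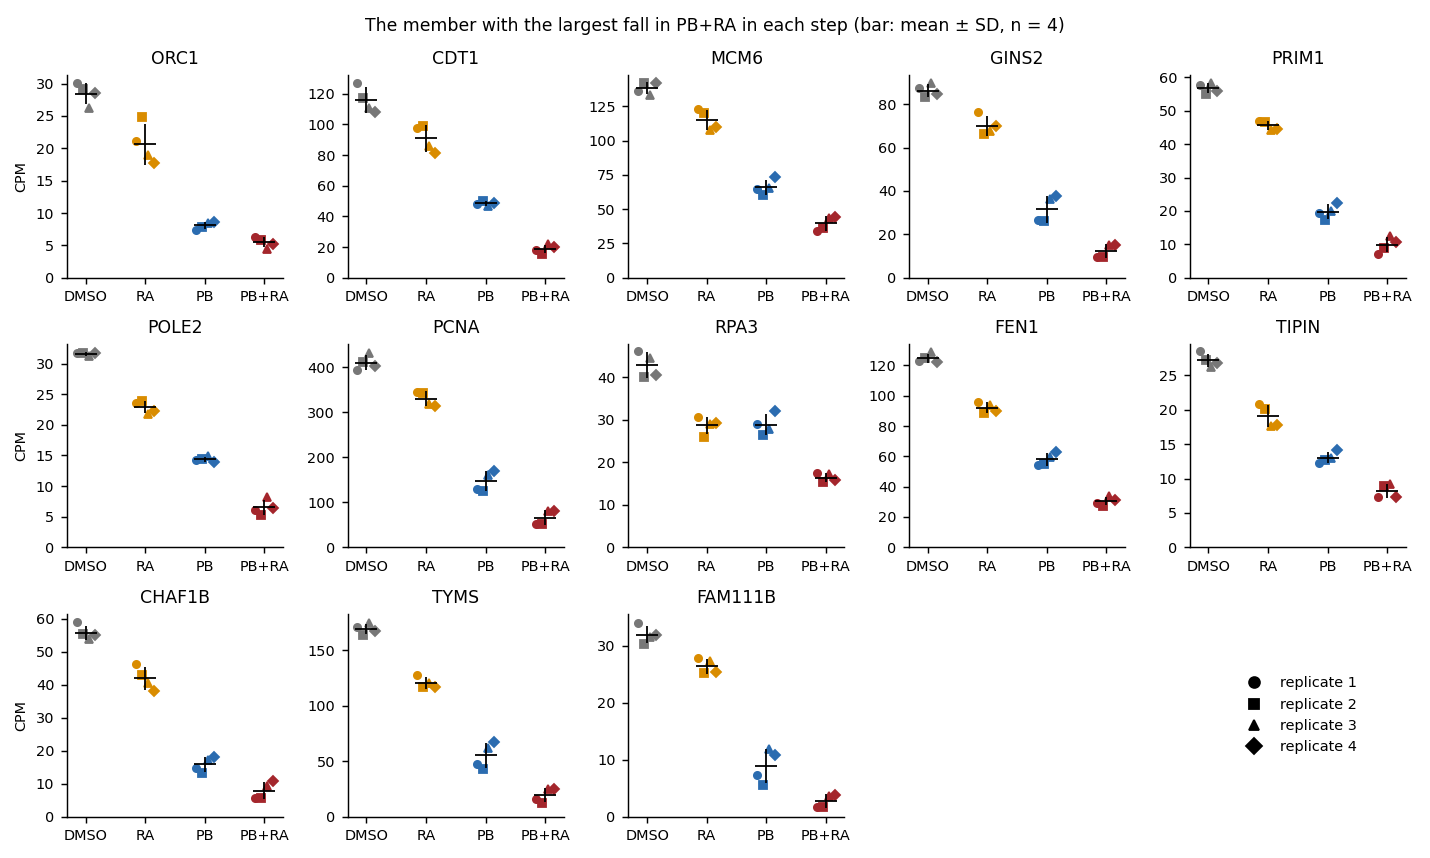
Each panel plots CPM (y axis, from 0) in the 16 samples for the member with the largest fall in PB+RA in 1 of the 13 steps, with a marker per replicate and the mean ± SD of 4 in black. In the panels of ORC1, PCNA and FAM111B the order is DMSO, RA, PB and PB+RA from high to low, while in that of RPA3 the samples of RA and PB overlap.

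PB+RA was next set against each single agent. Against PB, 47 members fell and 0 rose, beside 7.27% and 9.02% of tested genes, with a median of -0.75. Against RA, 50 fell and 0 rose, beside 14.1% and 14.9%, with a median of -1.27. Both comparisons called 45 of the same members lower. The members called in PB+RA included all 47 called in PB and 8 more, which were ORC2, CDC7, POLD1, POLD2, POLE3, RFC3, RPA1 and RPA2. Of these 8, 4 were also lower against PB. They were CDC7 at -0.84 ± 0.13, POLD1 at -0.73 ± 0.11, POLE3 at -0.52 ± 0.04 and RFC3 at -0.82 ± 0.07. Within replicates 1 and 2, 45 members were lower against PB and 52 against RA, beside 6.79% and 14.9% of tested genes. Within replicates 3 and 4, 45 and 49 were lower, beside 7.78% and 13%.

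The interaction tested, on the log2 scale and not in CPM, whether both agents together lowered a gene beyond the sum of their single effects. It is the log2 fold change of PB+RA minus those of PB and RA. It was called below 0 in 20 members and above 0 in 0, beside 3.02% and 0.415% of tested genes, and its median was -0.43 over the members and -0.04 over all tested genes. FAM111B had the lowest value, at -1.44 ± 0.34 (edgeR adjusted p = 0.0196). It was followed by RRM2 at -1.23 ± 0.27 (edgeR adjusted p = 0.0155), UHRF1 at -1.13 ± 0.19 (edgeR adjusted p = 0.00328) and GINS2 at -1.08 ± 0.21 (edgeR adjusted p = 0.00754).

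By step, the interaction was called in all 4 licensing genes, at -1.03 for CDT1, -0.92 for CDC6, -0.70 for DTL and -0.69 for GMNN. In origin firing it was called for GINS2, for MCM10 at -1.06 and for CDC45 at -0.75. In the alpha-primase complex it was called for PRIM1 at -0.72 and POLA2 at -0.50, and among polymerases delta and epsilon for POLE2 at -0.70, POLD1 at -0.59 and POLE at -0.55. The remaining calls were PCNA at -0.86, ASF1B at -0.86, UHRF1, RRM2, TYMS at -1.03, MCM5 at -0.55, FEN1 at -0.51 and FAM111B. It was called in 0 of the 6 origin recognition genes, 0 of the 3 RPA genes and 0 of the 3 fork protection genes. LIG1 and TK1 were also called with a replicate block, which gave 22 calls. With that block 6.36% of tested genes were called below 0, against 3.02% in the main fit. CDT1, MCM10, GINS2 and UHRF1 kept their calls in every alternative. POLA2 and FEN1 lost theirs with RLE size factors, with DESeq2 and with the GC and length offset. POLD1 and POLE lost theirs with that offset and without many of the single samples. FAM111B lost its call with no filter on low counts and without RA replicate 3 or PB replicate 3.

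The same result can be read from the log2 fold change with RA in cells without and with PB, which share no samples. For RRM2 it was -0.32 ± 0.19 without PB and -1.54 ± 0.20 with PB, for UHRF1 it was -0.11 and -1.24, and for FAM111B it was -0.28 and -1.73. The 2 members called in RA had closer values, at -0.52 and -0.70 for TIPIN and -0.59 and -0.84 for RPA3. The change was lower with PB than without it in 57 of the 59 members. The number of interaction calls varied with the samples used. It was 29 within replicates 1 and 2 and 14 within replicates 3 and 4, beside 2.96% and 3.63% of tested genes. Leaving out single samples gave 11 to 24, with 11 without PB replicate 3 and 13 without DMSO replicate 1 or RA replicate 3.

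**Figure D4:**
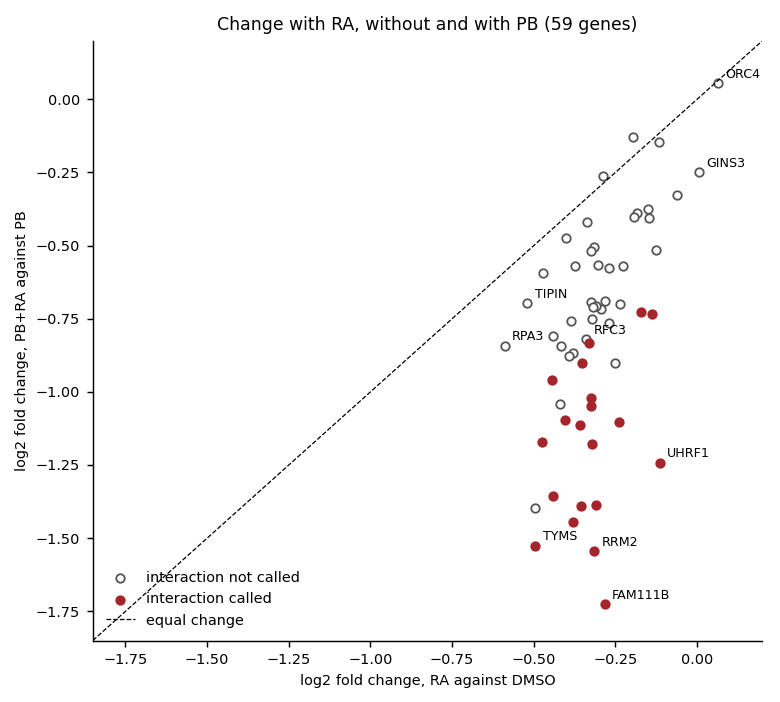
Each of the 59 members is placed by its log2 fold change with RA in the absence of PB (x axis, RA against DMSO) and in its presence (y axis, PB+RA against PB), with the members called for the interaction filled. Of the points, 57 lie below the dashed line of equal change, and FAM111B, RRM2 and TYMS lie lowest.

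Ratios of partner genes were compared within samples, where the library total cancels. All tests were exact permutation tests, two-sided, of 4 samples against 4, for which the smallest p is 0.0286. Of 25 tests 15 reached it (Benjamini-Hochberg adjusted p = 0.0476, exact permutation), and with signs flipped over the 4 replicate pairs 0 could pass, since the smallest p is then 0.125. The adjusted p depends on how many tests reached the smallest p together. The ratios also use the same samples as the fold changes above. The log2 ratio of RRM2 to RRM1 was 1.48, 1.48, 1.39 and 1.44 in DMSO, 1.37, 1.46, 1.38 and 1.45 in RA, 0.93, 0.90, 1.12 and 1.14 in PB and -0.27, -0.12, 0.42 and 0.45 in PB+RA. RA overlapped DMSO, every PB sample was below these and every PB+RA sample was below PB. As a plain ratio this was a mean of 2.73 RRM2 reads per RRM1 read in DMSO and 1.09 in PB+RA.

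The log2 ratio of ORC1 to ORC2 was -0.76, -0.75, -0.95 and -0.86 in DMSO, -1.07, -0.97, -1.23 and -1.40 in RA, -2.57, -2.26, -2.44 and -2.38 in PB and -2.31, -2.34, -3.01 and -2.78 in PB+RA. It passed in all comparisons except PB+RA against PB, where the groups overlapped. The ratio of POLE2 to POLE3 passed in all 5 comparisons, and its mean was -2.37 in DMSO, -2.52 in RA and -3.45 in PB, with the lowest, -4.12, in PB+RA.

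The ratio of DBF4 to CDC7, the activator and the kinase of one complex, was lower in PB than in DMSO, at -0.871 ± 0.139 against -0.381 ± 0.287 (SD, n = 4 each, log2; exact permutation adjusted p = 0.0476). In PB+RA it was higher than in PB by 0.333 and overlapped DMSO. The ratio of CDT1 to GMNN passed in 0 of 5 comparisons (exact permutation p from 0.0857 to 0.543), with group means between 0.132 and 0.428. Within replicate pairs it was higher in PB than in DMSO in 4 of 4, and lower in PB+RA than in PB and than in RA in 4 of 4 each, for which 4 pairs allow no p below 0.125 (exact sign-flip permutation).

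**Figure D5:**
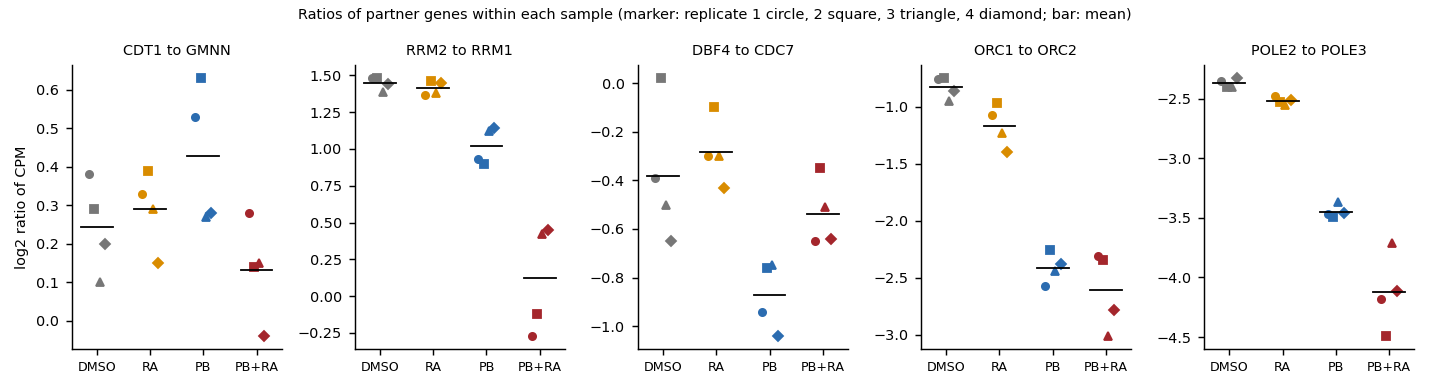
The y axis gives the log2 ratio of CPM of 2 partner genes in each of the 16 samples, in 5 panels with their own scales, with a marker per replicate and the group mean as a bar. The ratio of RRM2 to RRM1 drops from about the level of DMSO in RA to the lowest values in PB+RA replicates 1 and 2, while the groups overlap for CDT1 to GMNN.

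A further 60 genes of replication and nucleotide metabolism, listed by role in 7 groups, were read beside the members, and 59 of them were in the table and tested. With PB+RA 39 of these fell and 2 rose, with PB 24 and 1, and with RA 2 and 1. Of all tested genes, 17.9% were lower and 24.0% higher in PB+RA, 11.3% and 16.9% in PB and 2.54% and 10.8% in RA, so the 2 of 59 lower in RA are close to the share over all genes. Of 12 other initiation and fork factors, 11 fell in PB+RA, and of 7 genes of the lagging strand and topology 6 fell. The largest falls were those of PCLAF, which binds PCNA, from 120 ± 8.20 to 14.9 ± 4.89 CPM (log2 fold change -3.04), CLSPN, the checkpoint mediator claspin, from 42.2 ± 1.48 to 5.31 ± 1.35 (-3.02), and TOP2A, a topoisomerase, from 530 ± 46.9 to 95.8 ± 35.4 (-2.50).

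Metabolic genes outside the 5 members of nucleotide supply changed less. Of 10 genes of purine supply 6 fell in PB+RA, with a median of -0.53, and of 12 of pyrimidine and thymidylate supply 7 fell, with a median of -0.68. Those 2 medians with PB alone were -0.17 and -0.28. Of 5 genes of dNTP control 1 fell, which is close to the share over all tested genes, and RRM2B, the other small reductase subunit, was at 0.06. The 2 that rose in PB+RA were POLD4, a small subunit of polymerase delta, from 16.7 ± 1.06 to 34.1 ± 2.63 CPM (1.00), and GLRX, a glutaredoxin that can reduce ribonucleotide reductase, from 19.7 ± 0.940 to 42.9 ± 4.72 (1.10).

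Some members share exon bases with other genes, and the strand column used for counting was not stated. The largest overlap was that of TYMS with ENOSF1 on the opposite strand, at 39.9% of the exon bases of TYMS, where ENOSF1 had a mean of 13.0 CPM and TYMS 91.3. TIPIN, with a mean of 16.9 CPM, shared 21.1% with RPL9P25 on the same strand (0.453 CPM). MCM7 shared 7.9% with AP4M1 on the opposite strand (28.5 CPM). RFC5 shared 5.72% with WSB2 (210 CPM), RFC4 shared 0.601% with EIF4A2 (330 CPM) and PRIM1 shared 4.20% with NACA on the same strand (493 CPM).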

How the data were processed

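RNA was sequenced from 16 samples of SK-N-BE(2)C, grouped and numbered by the sample titles. Per the labels, polyadenylated RNA went into directional libraries read as paired ends. The submitters' processing notes name Trim Galore 0.6.4, STAR 2.6.1d, DESeq2 1.32.0 and the build hg19. The deposited read counts per gene were made by the authors with no normalization, and the deposited CPM are those counts divided by the sample total, within 5e-12. Annotation release and strand column are not given in the sources used here. Another deposited table holds the authors' own log2 fold changes and adjusted p-values and was not used.

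All 27037 genes of the count table entered filterByExpr, and 15415 were tested in R 4.3.3 with edgeR 4.0.16: TMM factors (0.983 to 1.02) and 1 quasi-likelihood fit over all 16 samples, with 1 coefficient for each group, robust dispersions and no covariate. Calls required a Benjamini-Hochberg adjusted p below 0.05 and a log2 fold change of more than 0.5 in size. Alternatives were RLE factors, 2 other filters, DESeq2 1.42.0, limma-voom (limma 3.58.1), a replicate block, a GC and length offset (values for 95.2% of tested genes), only the 2 groups compared, other fold minimums, both replicate sets and leaving out each sample. The procedure was tested on simulated data. Ratios were tested by exact permutation in Python 3.11.15 with numpy 2.4.6, also with 1 added to each CPM. A sample's total of 19.5 to 31.6 M counts puts the limit of a count of 0 (3 counts) at 0.0949 to 0.154 CPM, for counting error only.

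Over all tested genes, samples of the same replicate number deviated together from their group means in all 24 pairs (r from 0.33 to 0.573). Over the members alone r ran from -0.0323 to 0.698. The numbers, taken from the titles, were therefore read as pairing the samples. The main fit and the main ratio tests leave this pairing out, and the replicate block and the sign flips take it in. The members and lists were chosen with earlier results of these data known. Values in every sample are given for the most abundant member of each step and for those with the lowest and highest log2 fold change in PB+RA. Also named are members called in RA or for the interaction and those in a ratio, and from the further list the 3 largest falls and the rises. Gene positions are from GENCODE v44 models on GRCh37, which is hg19, and may not match the authors' annotation. Promoters are from RefSeq on GRCh38.p14. The level of 1 listed marker gene is not reported here.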

Additional observations from a re-analysis of the deposited data

Results flagged for a closer look

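In 136 groups of 4 samples (34 members in 4 groups), the extreme sample of 2 stood apart by Dixon's test at the 95% level, which chance does in about 1 of 20 groups. CDC6 was at 118 CPM in RA replicate 1 and at 110 to 111 in the other RA samples. RFC3 was at 165 CPM in DMSO replicate 2 and at 141 to 144 in the others.

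On the log2 scale, the effect of RA differed with and without PB, by the interaction test, in 20 members. It was more negative on that scale with PB in each, and differences in CPM were not tested. The interaction on the log2 scale was -1.44 for FAM111B, -1.23 for RRM2, -1.13 for UHRF1, -1.08 for GINS2, -1.06 for MCM10 and -1.03 for both CDT1 and TYMS. It was -0.92 for CDC6, -0.86 for PCNA and ASF1B, -0.75 for CDC45, -0.72 for PRIM1, -0.70 for DTL and POLE2 and -0.69 for GMNN. It was -0.59 for POLD1, -0.55 for MCM5 and POLE, -0.51 for FEN1 and -0.50 for POLA2.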

How the results depend on the processing

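The lower calls in PB+RA (55) and against RA (50) kept within 1.5 times their number in every alternative, and those in PB (47) and against PB (47) did so except with a log2 minimum of 1, which gave 24 and 17. Calls in RA (2) rose to 43 with no fold minimum, 5 with RLE factors, 4 with no filter on low counts, 5 with DESeq2, 13 with the GC and length offset, 13 with that offset and a replicate block, and 12 within replicates 3 and 4. They went to 1 within replicates 1 and 2 and to 0 with a log2 minimum of 1, and lay between 2 and 5 when a single sample was left out. In the order of the rises named, 16.4%, 3.02%, 1.75%, 3.04%, 5.11%, 5.92% and 4.47% of all tested genes were called lower. The share was 1.99% within replicates 1 and 2 and 0.564% with the log2 minimum of 1. The offset also moved the calls over all genes in RA from 1661 higher and 392 lower to 1329 and 788, and in PB+RA from 3698 and 2757 to 3220 and 3352. Interaction calls (20) went to 32 with no fold minimum, 7 with a log2 minimum of 1 and 11 with no filter, and to between 11 and 24 without single samples. With no fold minimum, a log2 minimum of 1 and no filter, 4.35%, 0.921% and 1.19% of tested genes were called below 0. With no fold minimum 1 member (ORC3) was higher against RA. The replicate block gave 0 passing ratios, since 4 pairs cannot reach the threshold. It gave 22 interaction calls in place of 20, beside 6.36% of tested genes in place of 3.02%. It moved no count of member calls by over 1.5 times.

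The members' median moved past the spread between replicates in a few settings. It was -0.99 for PB within replicates 1 and 2. For PB+RA it was -1.73 with the GC and length offset, -1.73 with offset and block, and -1.75 within replicates 1 and 2. Against RA it was -1.44 and -1.10 within replicates 1 and 2 and replicates 3 and 4. For the interaction it was -0.29 within replicates 3 and 4. The cause of these shifts was not tested. None changed direction. Over the single genes and ratios named, 0 values reversed, 151 gained and 235 lost a call among all alternatives.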
